A study of Homo sapiens with 6 samples.

Results

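The 9 genes described here encode the machinery that loads and displays peptides on MHC class I molecules: B2M, HLA-B, HLA-C, HLA-E, TAP1, TAP2, TAPBP, PSMB8 and PSMB9. They were taken by name, out of 19974 protein-coding genes on chromosomes 1-22 and X, and all 9 were found in the gene table of build GRCh38.p14. For each gene, the ATAC-seq peaks inside it or within 1000 bp of either end (its gene window) were read from 6 libraries of U937, an established human monocytic cell line. In 3 libraries the cells came from lines that carried control plasmids. In the other 3 they came from clones called ΔNSPs, in which CTSG, ELANE and PRTN3, the genes of 3 neutrophil serine proteases, had been depleted simultaneously. Cells of both groups were selected in 500 µg/ml geneticin, exposed to DNase (200 units/ml, 30 min at 37 °C), washed and frozen in medium with 5% DMSO before ATAC-seq. Each clone is 1 line, and each library has its own peak list with, per summit, the authors' fold enrichment over the local background of that library and −log10 values of p and q. Such a list holds no level for a site without a peak, so groups are compared by whether a peak was listed.

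MHC class I molecules are found on nearly all nucleated cells and present peptides cut from the cell's own proteins to CD8+ T cells. The immunoproteasome cuts these peptides, and its interferon-inducible catalytic subunits include PSMB8 and PSMB9. The transporter TAP1-TAP2 pumps the peptides into the endoplasmic reticulum, where tapasin, the product of TAPBP, helps to load them onto a heavy chain (HLA-B, HLA-C or HLA-E here) paired with beta-2 microglobulin, the product of B2M. Promoters of several of these genes respond to interferon through sites for interferon regulatory factors and STAT proteins.

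The libraries differed greatly in the number of peaks. On chromosomes 1-22, X and Y the control lines had 13, 4 and 2 peaks and clones 1, 2 and 3 had 14262, 24981 and 2188. The number of genes with a peak in the gene window was 6844 ± 4389 in the clones and 2.00 ± 2.65 in the control lines (mean ± SD, n = 3 each), a difference of 3.37 on the log10(genes + 1) scale (exact two-sided permutation test, p = 0.1, the smallest p that 3 libraries against 3 can give). Any control line had a peak in the window of 6 genes, 0.0300% of those tested, so the absence of a control peak from a given gene says little about that gene. Read totals were not given, and depth is therefore unknown. The fold and p of a summit together imply the number of reads piled up there and the local background, and these implied values are given below as the only guide to the reads behind a peak. The replicates are separate lines or clones with 1 library each, and these libraries are the units that the test permutes. A peak list does not check the depletion of the 3 protease genes. Of 10 monocytic marker genes, 4 had a peak in at least 2 clones, namely SPI1, ITGAM, CSF1R and CD68. This share is near the 34.1% of all protein-coding genes. SPI1 and CD68, 2 of the 10, had a peak in all 3 clones, as had 7.49% of all genes. The CD68 peaks were also in the window of EIF4A1. LYZ, FCGR1A and MPO had no peak in any library. Of 15 markers of T cells, B cells, erythroid cells and hepatocytes, 4 had one in at least 2 clones as well and 0 in all 3, and their part in the results was not tested.

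Nearly all of the 9 genes had a peak in clones 1 and 2, and none had one in clone 3 or in a control line. All 9 had a peak in clone 1, against 47.5% of all protein-coding genes. In clone 2 the number was 8, the exception being HLA-B, against 46.4% of all genes. In clone 3 it was 0 of 9, where 8.90% of all genes had a peak. Thus 8 of 9 genes were called in 2 or more clones with no control line calling them, as were 34.1% of all genes, and 0 of 9 were called in all 3 clones, as were 7.49%. Apart from B2M, the 9 genes lie in 2.82 Mb of chromosome 6, from HLA-E to TAPBP. Of the 117 other protein-coding genes wholly inside that stretch, 55 (47%) were called in at least 2 clones, a higher share than over all genes. For a single gene, a peak in 2 of 3 clones and 0 of 3 control lines gives p = 0.4 in an exact two-sided permutation test, so no gene of this list could pass a test on its own. Without clone 1 or without clone 2 the count of 8 fell to 0, since the remaining pair then included clone 3.

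**Figure D1:**
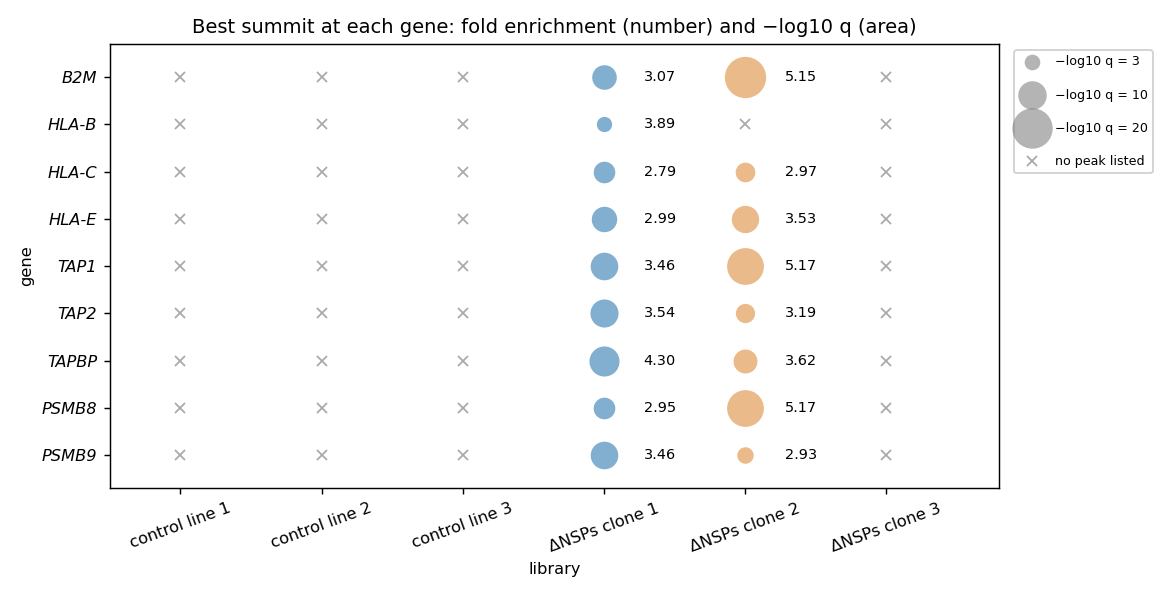
Fold enrichment (number) and −log10 q (area of the circle) of the best summit, that with the highest −log10 q, in the window of each of the 9 genes (rows) in each of the 6 libraries (columns), with a cross where no peak was listed. Clone 1 has a value in all 9 rows and clone 2 in 8, with folds from 2.79 to 5.17, and the 3 control lines and clone 3 have none.

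The best summits by q, with a summit shared by 2 genes counted for each, were mostly at or below the median fold of their lists. Most were above the median −log10 q, which their choice by q favours. The best summit per gene had a fold of 2.79 to 4.30 (median 3.46) in clone 1 and of 2.93 to 5.17 (median 3.57) in clone 2. The median fold over all peaks was 3.54 in clone 1 and 4.16 in clone 2, and the best summits of only 2 of 9 genes in clone 1 and 3 of 8 in clone 2 lay above it. By −log10 q, 8 of 9 in clone 1 and 6 of 8 in clone 2 lay above the medians of 4.56 and 4.63. These medians are over all peaks, whereas the other peaks of a gene, with lower −log10 q, were left out here. The comparison by q therefore does not show that peaks at these genes are stronger than others. The implied pile-up at the best summit ran from 12 to 51 reads in clone 1 and from 25 to 62 in clone 2.

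Several of these peaks belong to more than 1 gene. The 20 distinct peaks of clones 1 and 2, 10 in each, fell into 7 groups of genes that shared no peak with another group. TAP1, PSMB8 and PSMB9 formed the only group of several, and all peaks of each of these 3 genes lay in the window of another of them. PSMB8-AS1, an antisense gene of PSMB8, shared the PSMB8 peaks as well. The B2M peaks were also in the window of PATL2, and those of TAPBP in the windows of RGL2 or ZBTB22. HLA-B, HLA-C, HLA-E and TAP2 were the 4 genes whose peaks lay in no other gene's window. The count of 8 of 9 genes is therefore not a count of 8 separate sites.

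A peak in the same place in both clones was found for 8 of 9 genes, all but HLA-B, where 27.5% of all genes had a region overlapping between any 2 clones by 1 bp or more. Of the 10 member peaks in each clone, 8 paired with a peak of the other clone. In these 8 pairs the summits lay 1 to 68 bp apart (median 33 bp), and over all 6861 overlapping pairs of clones 1 and 2 the median was 54 bp. The fold was higher in clone 2 in 4 of the 8 pairs and in 64.5% of all pairs, with a median ratio of clone 2 to clone 1 of 1.02 and 1.12 respectively. Counting only the windows of 1000 bp around both gene ends left 8 of 9 genes, against 23.3% of all genes.

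A table of promoter sequences gives the strand and the start of 8 of the 9 genes, all but HLA-E. Its windows run from 250 bases before to 50 bases after each start. In clone 1 a peak overlapped such a window at 8 of 8 genes, against 37.2% of the 15812 protein-coding genes in the table. In clone 2 this held for 5 of 8 (B2M, HLA-C, TAP2, PSMB8 and PSMB9), against 26.1%, and in clone 3 for 0 of 8. These 5 genes were also those with a peak there in at least 2 clones, as had 21.1% of genes.

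**Figure D2:**
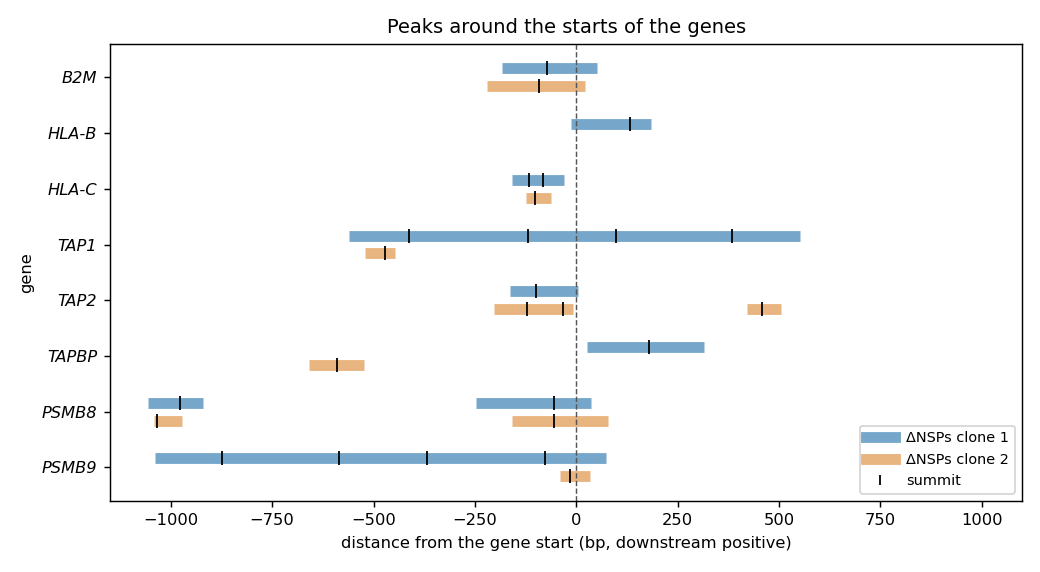
Peaks of clone 1 (blue) and clone 2 (orange) around the starts of the 8 genes whose strand was known, as distance from the outermost gene start in bp, with black ticks for summits; peaks at the far ends of TAP1 and TAPBP are not drawn. Each clone has a peak at or just upstream of the start at B2M, HLA-C, TAP2, PSMB8 and PSMB9. TAP2 in clone 2 and PSMB8 in both clones have a further peak, and the clone 1 peak at PSMB9 reaches into TAP1. The TAPBP peaks drawn for the 2 clones do not overlap, and HLA-B has a peak in clone 1 only.

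Of the genes for the chains of the class I molecule, B2M (chromosome 15, 44711517 to 44718145) had 1 peak per clone, across its start. In clone 1 it ran from 44711335 to 44711569, with a fold of 3.07 and a −log10 q of 7.43. In clone 2 it ran from 44711296 to 44711539, with a fold of 5.15 and a −log10 q of 20.9. The summits lay 73 and 91 bp upstream of the B2M start, 18 bp from each other. The implied pile-up was 46 reads over a background of 14.3 in clone 1 and 62 over 11.2 in clone 2. That peak ranked 487 of 24981 by q in clone 2, the best rank among the 9 genes, and 3197 of 14262 in clone 1. The fold was 1.68 times higher in clone 2. PATL2 is transcribed away from B2M and has annotated starts 127 and 194 bp from that of B2M, the nearer of which lies inside the peak of each clone.

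HLA-E (chromosome 6, 30489509 to 30494194) encodes a nonclassical heavy chain that is recognised by receptors of natural killer cells. Its single peak reached from outside the gene to 30489608 in clone 1, starting at 30489282, and ran from 30489363 to 30489485 in clone 2. The fold was 2.99 in clone 1 and 3.53 in clone 2, with a −log10 q of 7.94 and 9.14 and pile-ups of 51 and 45 reads. The summits lay 65 and 101 bp outside the gene at the end with the lower coordinate. Both clones thus placed the peak at the same gene end, and the clone 2 peak lay wholly inside the interval of clone 1.

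HLA-C (chromosome 6, 31268749 to 31272092) encodes a classical heavy chain. Its peak ran from 31272122 to 31272251 in clone 1 and from 31272154 to 31272216 in clone 2, wholly upstream of the start. The folds were 2.79 and 2.97, the lowest among the best summits of the 9 genes in clone 1 and close to the lowest, at PSMB9, in clone 2. The −log10 q was 5.73 and 4.72, and the pile-ups were 43 and 33 reads over backgrounds of 14.8 and 10.5. The summits lay 82 and 101 bp upstream of the start.

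HLA-B (chromosome 6, 31353875 to 31357179), the other classical heavy chain gene here, had a peak in clone 1 only. That peak, from 31356996 to 31357192, had its summit 132 bp inside the gene, with a fold of 3.89, a −log10 q of 2.88 and a pile-up of 12 reads over a background of 2.34. It was the peak with the fewest reads among the best summits of the 9 genes and ranked 11303 of 14262 by q. The nearest clone 2 peak lay 9.85 kb away. HLA-B and HLA-C are closely similar paralogs, and how reads that map to both were treated is not given in the sources used here, so their values are uncertain. None of the 6 lists has a peak on an alternate MHC haplotype sequence.

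The promoters of HLA-C and HLA-B are shown because these paralogs are called differently, in both clones and in clone 1 only. They are from RefSeq, GRCh38.p14, chr6:31272043-31272342 and chr6:31357130-31357429, both on the minus strand and written 5′ to 3′ from 250 bases before the start. Capitals mark matches on either strand to any of 8 motifs searched: GAAANNGAA (a core bound by interferon regulatory factors), TTCNNNGAA (STAT proteins), CCAAT (bound by the trimeric factor NF-Y), GGGCGG (the GC box bound by Sp proteins), CCGGAAGT (ETS proteins), TGACG (the core of the cAMP response element), GGGGATTCC (part of an NF-kB site) and TATAAA (the TATA box). Matches may overlap, and a match is a run of letters, not a measured binding site.
HLA-C: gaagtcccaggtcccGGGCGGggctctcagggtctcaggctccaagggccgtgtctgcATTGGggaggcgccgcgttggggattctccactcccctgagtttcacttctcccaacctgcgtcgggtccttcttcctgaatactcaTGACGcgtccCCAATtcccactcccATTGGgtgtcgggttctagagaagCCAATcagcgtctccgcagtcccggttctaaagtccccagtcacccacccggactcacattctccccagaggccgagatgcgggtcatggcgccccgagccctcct
HLA-B: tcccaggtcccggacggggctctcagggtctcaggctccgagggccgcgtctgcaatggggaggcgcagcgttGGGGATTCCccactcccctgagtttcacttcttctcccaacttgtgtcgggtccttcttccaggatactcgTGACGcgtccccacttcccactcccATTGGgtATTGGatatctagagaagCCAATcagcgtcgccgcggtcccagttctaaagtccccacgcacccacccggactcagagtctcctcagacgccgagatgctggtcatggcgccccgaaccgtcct
The pair matched at 269 of 304 aligned positions (88.5%). Both held TGACG, 105 bases before the start in HLA-C and 106 in HLA-B, with CCAAT matches just downstream of it. The HLA-C peaks of both clones covered its TGACG and the CCAAT matches 95 and 80 bases before the start. GGGGATTCC was found in HLA-B but not HLA-C, and in 0.285% of all 35116 promoter windows. The clone 1 peak of HLA-B covered none of the HLA-B matches. It overlapped 63 of the 300 bases, at their downstream end. The HLA-C peaks overlapped 130 bases in clone 1 and 63 in clone 2.

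The B2M promoter, chr15:44711267-44711566 on the plus strand, carried the peak with the highest fold among the chain genes in clone 2. Its sequence (RefSeq, GRCh38.p14, same marks) was:
B2M: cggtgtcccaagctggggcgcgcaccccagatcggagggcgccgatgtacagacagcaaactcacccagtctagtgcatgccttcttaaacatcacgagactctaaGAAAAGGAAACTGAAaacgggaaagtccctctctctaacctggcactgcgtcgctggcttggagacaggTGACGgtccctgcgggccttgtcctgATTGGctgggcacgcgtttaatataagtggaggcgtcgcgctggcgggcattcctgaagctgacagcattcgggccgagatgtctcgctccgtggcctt
It held a pair of overlapping GAAANNGAA matches that began 144 and 138 bases before the start, TGACG 75 bases before it and a reverse CCAAT 49 bases before it. The peaks of clones 1 and 2 each covered all 4 matches and overlapped 232 and 244 of the 300 bases.

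Among the genes for peptide transport and loading, TAP2 (chromosome 6, 32821831 to 32838739), the second chain of the transporter, had a peak at its start in both clones. It ran from 32838735 to 32838903 in clone 1 and from 32838747 to 32838942 in clone 2. Its fold was 3.54 with a −log10 q of 9.66 in clone 1, and 3.19 with 4.55 in clone 2. The pile-ups were 47 and 28 reads, and the best summits lay 100 and 32 bp upstream of the start. Clone 2 had a second, separate peak 459 bp inside the gene, with a fold of 3.84, a −log10 q of 4.02 and a pile-up of 18 reads. The fold at the start was thus lower in clone 2, by a ratio of 0.903, the opposite order to B2M.

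The TAP2 promoter, chr6:32838690-32838989 on the minus strand (RefSeq, GRCh38.p14, same marks), is shown because both clones' peaks lie over its motif matches:
TAP2: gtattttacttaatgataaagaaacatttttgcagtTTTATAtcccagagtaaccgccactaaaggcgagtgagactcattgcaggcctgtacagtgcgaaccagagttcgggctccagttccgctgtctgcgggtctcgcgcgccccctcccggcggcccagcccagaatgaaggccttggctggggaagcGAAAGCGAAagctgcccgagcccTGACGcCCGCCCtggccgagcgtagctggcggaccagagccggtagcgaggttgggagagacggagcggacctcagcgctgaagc
GAAANNGAA was matched 58 bases before the start, TGACG 35 and the GC box on the reverse strand 29 bases before it, and the peaks of both clones covered these 3. The TATAAA match, 214 bases before the start, lay outside both.

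TAP1 (chromosome 6, 32845209 to 32853704), the first chain of the transporter, starts 488 bp from PSMB9 (chromosome 6, 32854192 to 32859851), and the pair are transcribed away from each other. In clone 1 a single interval of 1113 bp, from 32853153 to 32854265, spanned both starts, with 4 summits. From the TAP1 side to the PSMB9 side their folds were 4.66, 3.27, 3.53 and 3.46 and their −log10 q were 5.60, 3.19, 7.07 and 9.35. The implied pile-ups at these summits were 18, 19, 35 and 47 reads. They lay 385 and 98 bp inside TAP1 and then 119 and 412 bp upstream of it, the last being 76 bp upstream of PSMB9. Pile-up was thus highest beside the start of PSMB9, and the fold was highest inside TAP1, where the implied background was 3.08 reads against 12.9.

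In clone 2 the same stretch held only a 75 bp peak, from 32854151 to 32854225, with its summit 16 bp upstream of PSMB9 and 472 bp upstream of TAP1. Its fold was 2.93, its −log10 q 3.33 and its pile-up 25 reads. It overlapped 75 bases of the PSMB9 promoter window and none of that of TAP1. The best summit of TAP1 in clone 2 lay instead at the other end of the gene, in the peak at the start of PSMB8. All 3 TAP1 peaks of each clone overlapped one of the other clone, but the best summits lay at opposite ends of the gene, and the start itself was covered in clone 1 only.

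The promoters of TAP1 (chr6:32853655-32853954, minus strand) and PSMB9 (chr6:32853942-32854241, plus strand) meet in the shared interval of clone 1, with 13 bases in common (RefSeq, GRCh38.p14, same marks):
TAP1: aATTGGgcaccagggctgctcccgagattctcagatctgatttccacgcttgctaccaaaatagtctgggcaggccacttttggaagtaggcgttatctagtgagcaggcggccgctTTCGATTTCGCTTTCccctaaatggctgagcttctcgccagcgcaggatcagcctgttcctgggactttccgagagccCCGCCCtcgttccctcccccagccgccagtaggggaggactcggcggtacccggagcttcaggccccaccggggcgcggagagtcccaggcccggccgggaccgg
PSMB9: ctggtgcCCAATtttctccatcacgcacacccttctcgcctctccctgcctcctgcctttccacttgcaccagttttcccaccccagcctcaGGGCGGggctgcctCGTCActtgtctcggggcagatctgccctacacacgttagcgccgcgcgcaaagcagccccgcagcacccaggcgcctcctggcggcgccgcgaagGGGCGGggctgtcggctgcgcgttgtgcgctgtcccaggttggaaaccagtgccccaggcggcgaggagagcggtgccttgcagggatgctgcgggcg
TAP1 held 2 overlapping reverse matches of GAAANNGAA that began 133 and 127 bases before its start, inside the clone 1 interval and outside the peak of clone 2. PSMB9 held none, but 2 GC boxes, 158 and 48 bases before its start, a reverse TGACG 144 bases before it and a CCAAT 243 bases before it. This CCAAT lies in the bases common to both windows and is also the reverse CCAAT match of TAP1. The promoter window of a second annotated TAP1 start, chr6:32852712-32853011, was overlapped by no peak.

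PSMB8 (chromosome 6, 32840717 to 32844679), the second immunoproteasome subunit here, had a peak over its outermost start in both clones, from 32844643 to 32844926 in clone 1 and from 32844601 to 32844837 in clone 2. The summits were 1 bp apart, 55 and 56 bp upstream of the start. The fold was 2.95 in clone 1 and 5.17 in clone 2, a ratio of 1.75, the largest of the 8 pairs, with a −log10 q of 5.75 and 16.6. The pile-ups were 39 reads over 12.6 and 49 over 8.68. This site also lies within 1000 bp of the far end of TAP1 and in the window of PSMB8-AS1. A further small peak, about 1 kb upstream of PSMB8 and inside TAP1, had folds of 4.17 and 4.04 from pile-ups of 19 and 15 reads in clones 1 and 2. The promoter window of the inner PSMB8 start, chr6:32843998-32844297, was overlapped by no peak.

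**Figure D3:**
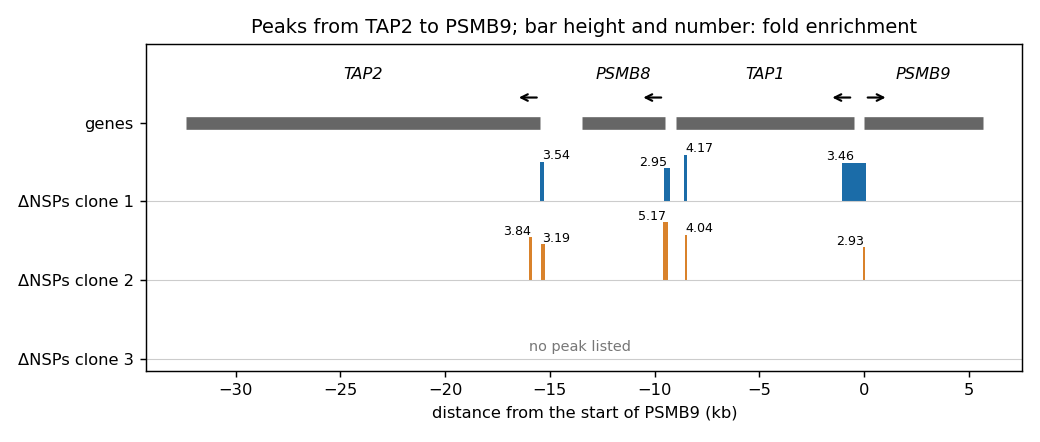
Genes (grey, arrows at their starts) and peaks from TAP2 to PSMB9 in the 3 clones, by distance from the start of PSMB9 in kb; bar height and number give the fold of the best summit, and peaks under 120 bp are drawn 120 bp wide. Clone 1 has 4 peaks here, the 1113 bp interval between TAP1 and PSMB9 among them, clone 2 has 5 and clone 3 none.

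TAPBP (chromosome 6, 33299694 to 33314078) had its best peaks at the end of the gene away from its start, within the window of RGL2 as well. They ran from 33299451 to 33299786 in clone 1, with a fold of 4.30, a −log10 q of 11.1 and a pile-up of 41 reads, and from 33299486 to 33299573 in clone 2, with 3.62, 7.04 and 34 reads. The fold in clone 1 was the highest there among the best summits by q of the 9 genes. At the start of TAPBP the clones differed. Clone 1 had a weak peak with its summit 180 bp inside the gene (fold 3.12, −log10 q 2.05, 14 reads), which reached 23 bases into the promoter window. Clone 2 had one 589 bp upstream, in the window of ZBTB22 (fold 4.85, −log10 q 7.0, 22 reads). The TAPBP promoter window held a pair of GAAANNGAA matches that began 20 and 14 bases before the start, and neither clone's peaks covered them.

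The 10 promoter windows of the 8 genes in the table had a median GC share of 62.0% and a median of 20.5 CpG dinucleotides, against 58.7% and 14 over all 35116 windows. GAAANNGAA was present in 5 of the 10 (B2M, TAP2, TAPBP, the outer start of TAP1 and the inner start of PSMB8) and in 8.11% of all windows. TTCNNNGAA was present in 2, both of them windows of inner starts that no peak overlapped, and in 7.66% of all. TGACG was found in 6 of 10 against 24.6%, CCAAT in 5 against 34.6%, GGGCGG in 8 against 45.0% and TATAAA in 1 against 11.5%. The CCAAT matches of TAP1 and PSMB9 are the same bases, counted once for each window. CCGGAAGT was in none of the 10 and in 4.14% of all. The genes were chosen by name with earlier results known, so these shares are a description.

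Clone 3 had no peak at the 9 genes but had some in the neighbourhood, where most other genes lacked one too. A clone 3 peak was listed for 8.90% of all protein-coding genes and for 19.7% of the other genes in the stretch described below. Whether the absence sets the 9 genes apart from all genes or from their neighbours was not tested. The nearest clone 3 peak lay 10.2 kb from TAPBP, 85.6 to 123 kb from PSMB9, TAP1, PSMB8, TAP2, HLA-C and HLA-E, 195 kb from HLA-B and 917 kb from B2M. In the 2.82 Mb of chromosome 6 from HLA-E to TAPBP, clone 3 had 16 peaks against 81 and 98 in clones 1 and 2. Of the 117 other protein-coding genes wholly inside that stretch, 23 (19.7%) had a clone 3 peak, 63 (53.8%) a clone 1 peak and 68 (58.1%) a clone 2 peak. When clones 1 and 2 were cut to their 2188 peaks of lowest q, the length of the clone 3 list, 4 of the 9 genes kept a peak in clone 1 (TAP1, TAP2, TAPBP and PSMB9) and 3 in clone 2 (B2M, TAP1 and PSMB8), against 11.3% and 8.43% of all genes. Only TAP1 was then called in both, through peaks at its opposite ends, where 6.68% of all genes were called in at least 2 clones.

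Other genes of the class I pathway, from a list of 15, had a peak in at least 2 clones at 9 and in all 3 at 2, where 34.1% and 7.49% of all genes did. CALR, the chaperone calreticulin of the peptide-loading complex, had folds of 4.01, 3.98 and 2.36 in clones 1, 2 and 3, all from overlapping peaks that end just inside the gene. TAPBPL, which encodes the tapasin-related protein TAPBPR, had folds of 3.54, 7.02 and 2.53, with the clone 2 peak elsewhere in the gene and all of them also counted for VAMP1. PSMB10, the remaining inducible catalytic subunit of the immunoproteasome, had 2.83 and 4.52 in clones 1 and 2. PSME2 and PSME3, subunits of proteasome activators, had 2.43 and 3.09 and 4.96 and 5.38. Both PSME2 peaks lay outside the gene and also in the window of RNF31. ERAP1, which trims peptides, the lectin chaperone CANX and PDIA3, a protein disulphide isomerase of the loading complex, were called in clones 1 and 2 too. The best peaks of ERAP1 and of CANX lay far apart in the 2 clones. In clone 1 they were also in the windows of LNPEP and MAML1 respectively. Those of PDIA3 were separate peaks at the same gene end. All 9 genes of this list called in at least 2 clones also had a region that overlapped between clones. HLA-G, ERAP2 and HFE had no peak in any library.

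The constitutive proteasome subunits that the inducible ones replace are encoded by PSMB5, PSMB6 and PSMB7. PSMB5 and PSMB6 had no peak in any library, and PSMB7, named after its values were seen, had one in clone 2 alone (fold 3.8), inside the gene. The number with a peak in at least 2 clones was thus 0 of 3, a list too short to set against the 34.1% of all genes.

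MHC class II molecules, which present peptides from outside the cell, are encoded in the same stretch of chromosome 6. Of 15 genes of that pathway, 1 had a peak in at least 2 clones, against 8 of the 9 class I genes and 34.1% of all genes. It was CD74, the invariant chain, with folds of 5.78 and 3.77 from non-overlapping peaks inside the gene in clones 1 and 2. HLA-DRA, HLA-DRB1, HLA-DRB5 and HLA-DQA1 had none in any library, as had 8 of the 15 in all. The clones differed in this list, with 1, 6 and 1 of 15 genes called in clones 1, 2 and 3. These are 6.67%, 40% and 6.67%, against 47.5%, 46.4% and 8.90% of all genes. The share lay far below that of all genes in clone 1 only. The difference between the 2 pathways was not tested.

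**Figure D4:**
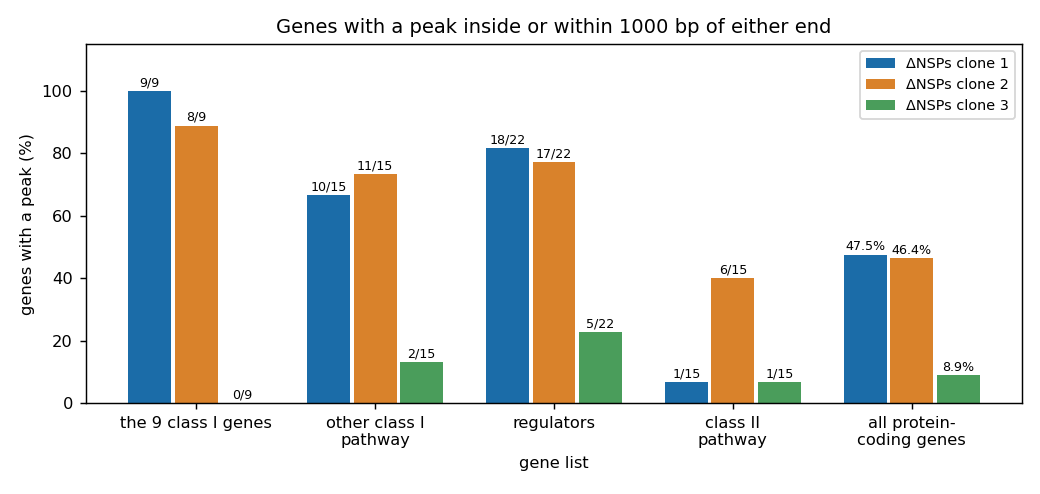
Share of genes with a peak inside or within 1000 bp of either end (%), for clones 1, 2 and 3, in the 9 class I genes, 3 other gene lists and all 19974 protein-coding genes, with counts above the bars. The 9 class I genes stand at 9, 8 and 0 genes, and class II pathway genes at 1, 6 and 1 of 15.

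Genes that regulate class I promoters had a peak in at least 2 clones at 14 of 22, in all 3 clones at 4 and in exactly 1 clone at 8, and the shares of all genes in at least 2 and in all 3 clones were 34.1% and 7.49%. CREB1 and NFYA, whose products bind the CRE-like and CCAAT elements, had folds of 3.65, 3.20 and 2.46 and of 3.65, 3.28 and 2.41 in clones 1, 2 and 3. RELA, a subunit of NF-kB, had 4.33, 5.49 and 3.98. IFNAR2, a chain of the type I interferon receptor, had 3.73, 7.36 and 2.65. Both had best peaks at different gene ends between clones. The IFNAR2 peaks of clones 2 and 3 lay just outside that gene and also in the window of IL10RB. Other peaks of this list were also counted for a neighbour, among them those of NFYA for OARD1. RFX5, part of the complex that binds the X box, had 2.65 and 2.37 in clones 1 and 2, and NFYB and NFYC, the partners of NFYA, had 2.33 and 3.29 and 6.0 and 3.70. IRF9 had 3.94 and 3.31, and IRF2 had 3.36 and 4.59 from separate places. CIITA, the master regulator of class II genes, had folds of 4.52 and 5.27 in a peak inside the gene. NLRC5, the class I transactivator, and IRF1, an interferon-induced activator, were singled out after their values were seen: each had a peak in clone 1 only, over a gene end, with folds of 3.61 and 2.86. With windows around the gene ends alone, 10 of 22 were called in at least 2 clones, against 23.3% of all genes.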

How the data were processed

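Peak lists of 6 ATAC-seq libraries from U937 cells were used, 3 control lines and 3 ΔNSPs clones, grouped by sample title. Per the submitters' processing notes, the build was GRCh38 and the tools included MACS2, Bowtie2, Picard and FastQC. Not given in the sources used here were their versions and settings, and how reads with several alignments were handled. Each of the deposited lists gives, per summit, the authors' fold enrichment (a ratio to the local background) and the authors' −log10 p and −log10 q. Peak names carry 1 library name per deposited list, so peaks were listed per library. The lowest −log10 q was 2.00 in the clones.

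Lines with the same interval were merged into 1 peak with its best summit. Peaks were assigned to genes of RefSeq GRCh38.p14 by overlap of 1 bp or more with the gene plus 1000 bp, with Python 3.11.15, pandas 2.3.3 and scipy 1.17.1, and assignment was tested on simulated data. Pile-up k and background λ were solved from fold = (k + 1)/(λ + 1) and the Poisson tail p. Promoter identity came from a global alignment (Biopython 1.88). The number of genes per library was compared with an exact permutation test on log10(genes + 1). The 9 genes and the other lists were chosen with earlier results of these data known, and no list was tested. Genes named were the 9, genes that share their peaks, and, from each other list, those called in all 3 clones, up to 6 more called in 2 and up to 4 without a peak, in list order. NLRC5, IRF1 and PSMB7, each called in 1 clone, fall outside this rule and were named after their values were seen. Some genes that share a peak with a gene of those other lists were named too. Promoter windows were added after the data were seen.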

Additional observations from a re-analysis of the deposited data

How the results depend on the processing

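The 9 class I genes with a peak in at least 2 clones numbered 8, and this count stayed at 8 with windows of 500 or 2500 bp, with the summit required inside the window and with gene ends only. With −log10 q of 5 or more it was 5 (5 for a region overlapping between clones, 3235 of all genes, 6 class I pathway genes, 6 regulators). With a fold of 4 or more it was 3 (2 for a region, 1834 of all genes, 4 class I pathway genes, 0 class II genes, 2 regulators). With equal list lengths it was 1 (0 for a region, 1335 of all genes, 3 class I pathway genes, 0 class II genes, 3 regulators). Gene ends only gave 0 class II genes. Promoter windows, added after the data were seen, could be counted only for genes with a promoter sequence. They gave 5 of 8 class I genes and 3336 of 15812 protein-coding genes. In the other lists they gave 5 of 13 class I pathway genes, 0 of 12 class II genes and 8 of 16 regulators. Part of the fall from the main counts is therefore due to genes without such a sequence. The thresholds, the shorter lists and the narrower windows leave fewer peaks by construction. Leaving out 1 library gave 0 to 8 class I genes, 0 to 8 with an overlapping region, 1598 to 6821 of all genes, 2 to 9 class I pathway genes, 0 to 1 class II genes and 4 to 14 regulators; the low values came without clone 1 or clone 2. The counts of 0 of 9 in all 3 clones and 0 of 3 constitutive subunits did not change in the alternatives run. Only the window of 2500 bp could have raised them, since the other alternatives add no peak at these genes. With the replicate number as a block, the difference in genes per library stayed 3.37 on the log10 scale (exact sign-flip test, p = 0.25, the smallest that 3 pairs allow), and the labels do not say that equal numbers share a batch. Depth is unknown, and a site missing from a short list may have too few reads to be called.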
